A study of Mus musculus with 24 samples.

Results

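The clustered protocadherins are neuronal cell-surface adhesion proteins encoded by 3 neighbouring gene clusters, alpha, beta and gamma, on mouse chromosome 18. Genes were taken as members when the symbol attached to their Ensembl identifier began with Pcdha, Pcdhb or Pcdhg followed by a member number or a C-type letter. This rule found 24 of the 37289 genes in the expression files: 22 beta genes, Pcdhb1 to Pcdhb22, and a single gene entry each for alpha (ENSMUSG00000007440.7, symbol Pcdha11) and gamma (ENSMUSG00000023036.7, symbol Pcdhgc4). The name table holds 58 identifiers that match the rule, and 34 of them do not occur in the files. The RefSeq assembly GRCm38.p6, which is not the build of the files, lists 14 alpha, 22 beta and 22 gamma symbols. The alpha entry has 10 transcripts and the gamma entry has 10 transcripts, so each entry stands for its cluster below, and single alpha and gamma isoforms are named only by transcript identifier. Both entries hold fewer transcripts than the RefSeq lists hold symbols. Cluster levels and shares below therefore cover only the transcripts of the matched entries, which may leave out more of gamma than of alpha. Of the 37289 genes in the files, 4683 had no symbol, and the rule could not find members among those.

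Poly(A) RNA from striatum, taken by micropunch from female C57BL/6 mice, was sequenced in 12 libraries, 3 in each of 4 groups. The groups were Cntnap2 heterozygous mice (het) whose dams were exposed to variable stress for 7 days from embryonic day 12.5, het control mice of dams without that stress, stressed wild-type mice, and wild-type controls. Per the labels, the stressed dams carried embryos of both genotypes. Offspring of every group were ear-tagged at postnatal day 12 and weaned at postnatal day 18, and no label used here states their age at collection. Cntnap2 encodes CASPR2, a neurexin-related adhesion protein of neurons.

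In the alpha and gamma clusters, each of many variable first exons has its own promoter and is spliced to constant exons shared by the cluster, whereas each beta gene is a single-exon unit without a shared constant part. A neuron uses a small, partly random set of these promoters, chosen with the help of the DNA-binding protein CTCF and cohesin, and the C-type isoforms are used more uniformly. The proteins bind identical copies on other membranes and are known for the self-avoidance of neurites, for dendrite arborization and for the survival of interneurons. In bulk tissue a level is an average over all cells, and fewer cells using a promoter cannot be told apart from less RNA per cell.

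The libraries held 13587154 to 24039706 expected counts, with every het library (21410135 or more) deeper than every wild-type library (18538304 or less). The labelled tissue was checked on 9 medium spiny neuron markers, whose summed level was 3790 to 8128 TPM (RSEM's transcript level, scaled by length and by library). Markers of choroid plexus ranged from 5.80 to 850.3 TPM in sum. Cntnap2 itself was 45.49, 49.19 and 59.45 TPM in stressed het mice and 42.55, 35.97 and 45.97 TPM in het controls, against 39.69, 42.55 and 68.27 TPM in stressed wild-type mice and 43.55, 40.29 and 55.11 TPM in wild-type controls, so its level did not separate the genotypes. In wild-type stressed replicate 2, labelled female, Xist was 1.32 TPM, against 23.09 to 108.58 TPM in the other 11 libraries, and the file of het control replicate 1 carries an animal number other than the 1 in its label. No member was called by edgeR in any contrast below when either of these libraries was left out. The libraries also differed in how strongly counts depended on gene length: the slope of a library's log2 deviation on log2 length ran from -0.37 in het control replicate 1 and -0.30 in wild-type control replicate 1 to 0.29 in wild-type stressed replicate 3 and 0.28 in wild-type control replicate 3.

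Striatal RNA of the family came mostly from the gamma cluster. The gamma entry averaged 161.6 ± 55.9 TPM over the 12 mice (SD, n = 12), the alpha entry 23.1 ± 7.71 TPM, and single beta genes 0.179 to 6.93 TPM. The gamma cluster held 63.8 to 70.1% of the family's TPM in a library, the 22 beta genes together 20.1 to 26.1%, and the alpha cluster 8.53 to 10.8%. These shares moved little between mice although the levels themselves did.

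In single mice the gamma entry reached 177.11, 164.88 and 191.76 TPM in stressed het mice and 66.61, 162.63 and 216.09 TPM in het controls. It reached 126.59, 129.01 and 259.32 TPM in stressed wild-type mice and 94.79, 127.46 and 222.71 TPM in wild-type controls. The stressed het mice lay close together and inside the range of each other group. As means this was 177.9 ± 13.5 TPM in stressed het mice, 148.4 ± 75.7 TPM in het controls, 171.6 ± 75.9 TPM in stressed wild-type mice and 148.3 ± 66.5 TPM in wild-type controls (SD, n = 3 each).

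The alpha entry was 27.18, 24.31 and 26.63 TPM in stressed het mice and 10.73, 21.40 and 26.28 TPM in het controls, against 18.87, 18.11 and 37.09 TPM in stressed wild-type mice and 13.05, 20.31 and 33.55 TPM in wild-type controls. The lowest value belonged to het control replicate 1 and the highest to wild-type stressed replicate 3, as for gamma. Stressed het mice overlapped het controls, although 2 of the 3 lay above the highest het control, and all other pairs of groups overlapped too. The summed beta cluster averaged 57.0 ± 5.08 TPM in stressed het mice, 47.96 ± 19.6 TPM in het controls, 51.5 ± 20.1 TPM in stressed wild-type mice and 48.9 ± 16.3 TPM in wild-type controls (SD, n = 3 each).

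**Figure D1:**
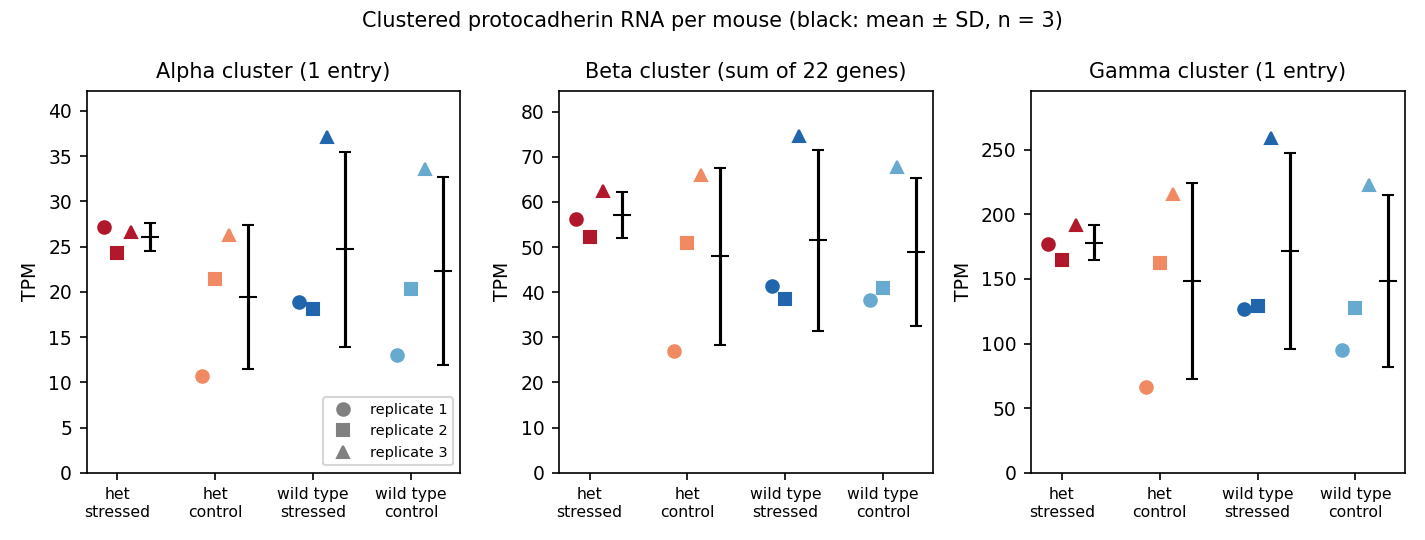
Summed TPM of the alpha entry, the 22 beta genes and the gamma entry (y axes, TPM, linear from 0) in each mouse, with groups on the x axis, marker shapes for replicate numbers, and black bars for the mean ± SD of 3 mice. Gamma lies between 66.61 and 259.32 TPM, and the groups overlap in each panel.

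Beta genes differed from each other more than the groups did. Of the 22 genes, 7 averaged over 3 TPM, 10 averaged 1 to 3 TPM and 5 averaged under 1 TPM. Pcdhb9 was the most abundant at 6.93 ± 1.12 TPM (SD, n = 12) and ranked between first and position 4 among the beta genes in the 12 libraries. Pcdhb17 followed at 4.86 ± 1.43 TPM and Pcdhb20 at 4.50 ± 1.22 TPM, and then came Pcdhb14 at 4.03 TPM and Pcdhb6 at 3.84 TPM. Among these 4, neighbours in the order differed by less than 1 SD between mice. The 5 genes of highest level held 47.1% of the cluster's mean TPM.

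Pcdhb1, at the start of the cluster, was the least abundant at 0.179 TPM with 2 to 11 counts per library, and it was the only member that did not pass the filter on low counts. The other genes under 1 TPM were Pcdhb21 (0.479 TPM), Pcdhb2 (0.481 TPM), Pcdhb4 (0.542 TPM) and Pcdhb15 (0.947 TPM). Position in the cluster, taken from the gene order in GRCm38.p6, and level were weakly related across the 22 genes, which share their libraries (Spearman's rho 0.26 between order and mean TPM, given as a description).

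**Figure D2:**
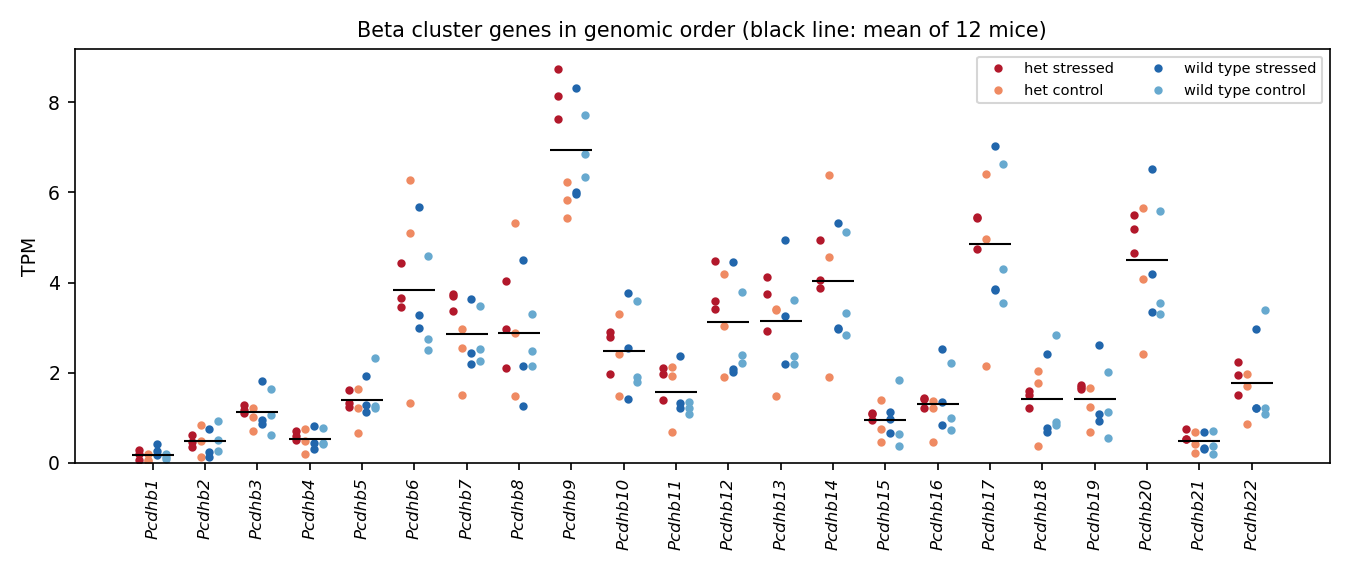
TPM (y axis, linear from 0) of the 22 beta genes in their order along the cluster (x axis), with a point per mouse coloured by group and a black line at the mean of 12 mice. Pcdhb9 stands highest at 6.93 TPM and Pcdhb1 lowest at 0.179 TPM, and the colours overlap for most genes.

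RSEM divides a read that matches several transcripts, so the beta paralogs can exchange counts. The counts of 6 beta genes (Pcdhb6, Pcdhb7, Pcdhb9, Pcdhb10, Pcdhb17 and Pcdhb19) were not whole numbers, within 0.005, in any of the 12 libraries, and their levels are uncertain to the extent that reads were shared. The counts of 12 beta genes were whole in at least 9 libraries. Among all tested genes 23.7% had no whole count in any library.

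At the level of transcripts, RSEM's estimates put a single isoform first in the alpha entry and a pair first in the gamma entry. Transcripts of these entries can share constant exons, and RSEM divides such reads, so the shares are uncertain. The 2 leading alpha transcripts are 5422 and 5254 nt long. Of the rest, ENSMUST00000007584.1 is 5296 nt, with a mean share of 4.6%, and the others are 1509 to 2940 nt. Whether the shares follow these lengths was not tested. ENSMUST00000047479.1 took 50.6 ± 2.73% of the alpha entry's TPM (SD, n = 12; range 47.69 to 55.09%) and was first in all 12 libraries. ENSMUST00000047614.1 followed with 18.3 ± 2.32%, and these 2 together held 64.41 to 76.56% of the alpha entry. The remaining 8 alpha transcripts averaged 0.895 to 7.61%.

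In the gamma entry ENSMUST00000055935.5 averaged 27.4 ± 1.92% and ENSMUST00000076807.4 averaged 26.9 ± 2.56% (SD, n = 12). Each was first in 6 libraries, and together they held 49.58 to 59.28% of the gamma entry. The next, ENSMUST00000003599.6, held 11.0 ± 1.06%, and the least, ENSMUST00000091934.2, held 0.0700%.

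A minor gamma transcript, ENSMUST00000066140.6, was picked out after its values were seen. Its share of the gamma entry was 2.55, 2.39 and 2.60% in stressed het mice and 2.03, 1.83 and 1.81% in het controls, against 2.70, 3.03 and 2.74% in stressed wild-type mice and 2.89, 2.68 and 2.93% in wild-type controls. The 3 het controls lay below all 9 other mice, as for 1 of the 26 tested transcripts of members with several transcripts (background 0.255%, over the transcripts of all such genes). The counts behind it did not pass the test in any contrast: edgeR's quasi-likelihood test on all transcripts gave a log2 fold change of -0.55 ± 0.28 (SE) in het against wild-type controls and 0.52 ± 0.28 in stressed against control het mice, both with an adjusted p of 1.0.

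**Figure D3:**
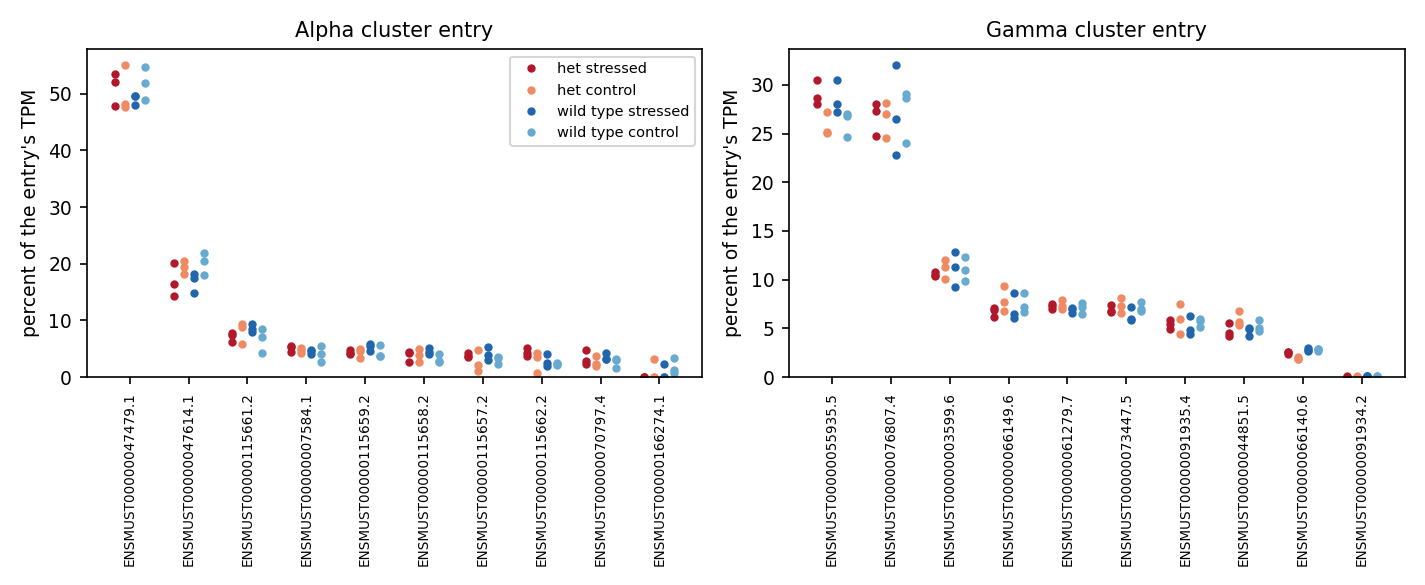
Share of the alpha entry's and of the gamma entry's TPM taken by each of their 10 transcripts (y axis, percent; x axis, Ensembl transcript identifiers in descending order of mean share), with a point per mouse coloured by group. The first alpha transcript takes 47.69 to 55.09% in every mouse, and the first 2 gamma transcripts overlap with means of 27.4 and 26.9%.

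The split between transcripts differed widely between libraries for Pcdhb8, Pcdhb18 and Pcdhb22. Pcdhb8 has 2 transcripts of 2340 nt each, which were given equal TPM in 9 libraries, while ENSMUST00000170549.1 was at 0 in the other 3. The Pcdhb18 transcript ENSMUST00000165498.1 took 100% of that gene in het control replicate 1, 4.16% in wild-type stressed replicate 2 and 0% in the other 10 libraries. The Pcdhb22 transcript ENSMUST00000166181.1 took 0 to 80.88% of its gene. Gene sums were therefore used for the beta comparisons.

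In TPM most members rose and fell together from mouse to mouse, and many other genes did so too. Het control replicate 1 had the lowest TPM of all 12 libraries for 15 of the 24 members, against 53.5% of all tested genes, and wild-type stressed replicate 3 had the highest TPM for 12 members, against 31.8% of all tested genes. Within their groups, het control replicate 1 lay below both other het controls for 22 members (71.4% of all tested genes). Wild-type stressed replicate 3 lay above both other mice of its group for 24 of 24 members (67.5% of all tested genes), and wild-type control replicate 3 did so for 24 of 24 (64.7% of all tested genes). The libraries named here are those at the ends of the length slope.

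The coefficient of variation between mice of a group had a median of 36.1% for the members in TPM, against 24.3% for all tested genes. In CPM (counts scaled to the library size with TMM factors and not divided by length) the medians were 22.4% for the members and 19.6% for all tested genes. Of the 23 tested members, 14 had their lowest CPM in het control replicate 1 and 8 their highest in wild-type stressed replicate 3. The shares of all genes were not computed for these CPM counts. Pcdhb9 had its highest CPM, 17.83, in het control replicate 1. The highest TPM of a member was in the median 3.48 times its lowest, against 2.43 times for all tested genes.

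Since the members are long (median 3533 nt over the 23 tested, against 2443 nt for all tested genes), the length slope was also fitted as a covariate beside the 4 group means, and the test of its coefficient was added after seeing the data. The slope is computed from the same counts, so its coefficient describes how a gene follows its library and is no independent evidence. By edgeR's quasi-likelihood test with Benjamini-Hochberg adjustment over all genes, 18 of 23 members followed the slope, and 61.4% of all tested genes did so. Higher values with a higher slope were called for 17 members, and the background for that direction was 31.6%. Over the whole slope range of 0.661 the fitted log2 CPM difference was 1.05 ± 0.10 (SE) for gamma (adjusted p = 1.71e-06) and 0.88 ± 0.08 for alpha (adjusted p = 1.16e-06), with a median of 0.88 over the members and 1e-04 over all genes.

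The steepest members were Pcdhb2, at 2.17 ± 0.43, and Pcdhb18, at 1.98 ± 0.28. Pcdhb9 went the other way, at -0.40 ± 0.14 (edgeR adjusted p = 0.0292), and was the only member called lower. Its level stayed between 5.44 and 8.74 TPM, so that it made up 21.6% of the beta cluster's TPM in het control replicate 1 and 9.44% in het control replicate 3. Pcdhb5, Pcdhb7, Pcdhb10, Pcdhb11 and Pcdhb13 were not called.

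**Figure D4:**
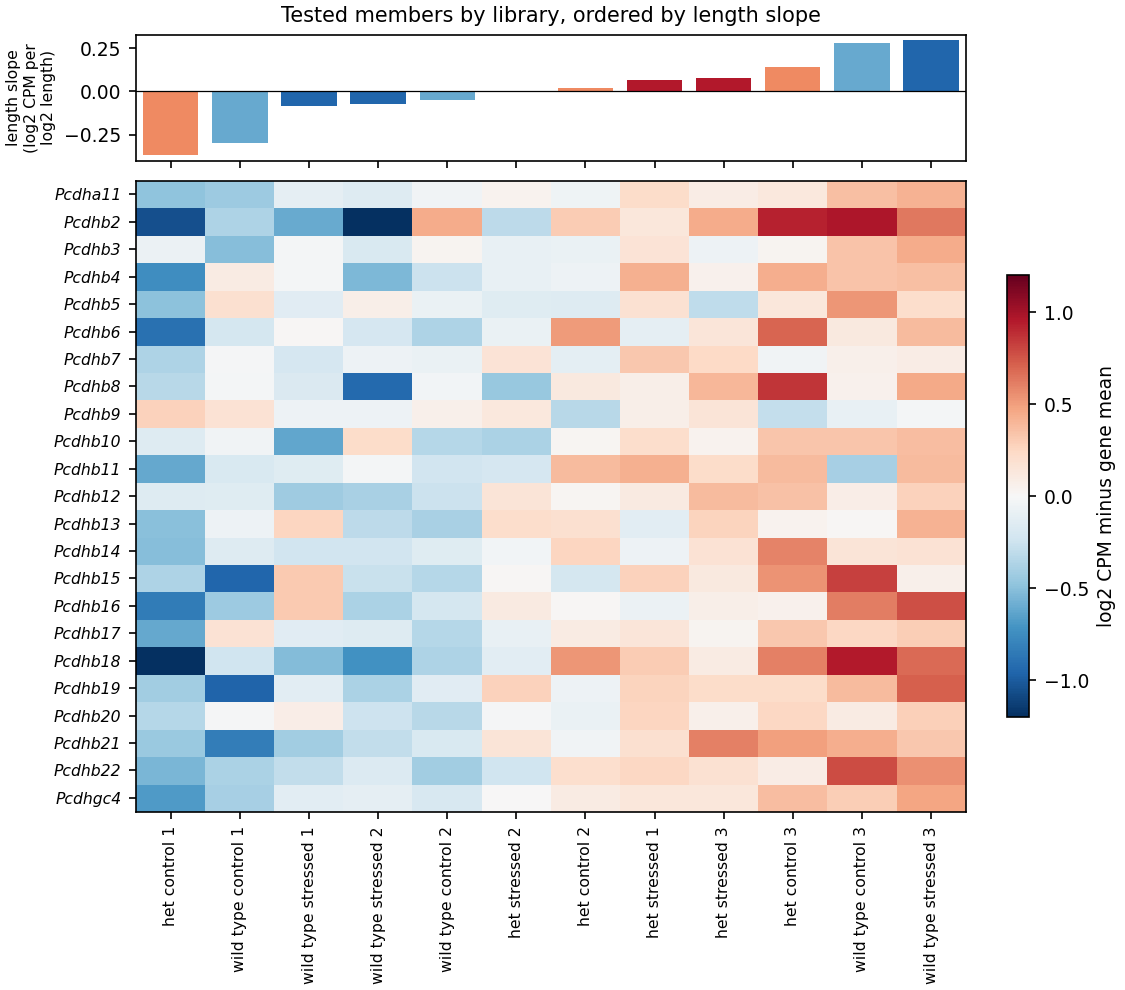
Log2 CPM of each of the 23 tested members minus its mean over 12 libraries (lower panel, colour scale ending at -1.2 and 1.2), with libraries ordered along the x axis by length slope (upper panel, bars coloured by group as in the other plots). Most rows run from blue in het control replicate 1, slope -0.37, to red in wild-type stressed replicate 3, slope 0.29, and Pcdhb9 runs the other way.

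Group differences were tested over all 15955 genes that passed the filter, 23 members among them, with edgeR's quasi-likelihood test and Benjamini-Hochberg adjustment. Replicates are separate mice, and where litters were shared the p-values measure only the spread between these mice. No member was called in any of the 7 contrasts, which were het against wild type within each prenatal condition, stressed against control within each genotype, the interaction of both, and the average of each effect over the other factor. Each contrast shares mice with others, so the contrasts do not support each other.

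In stressed mice, het against wild type, 0 of 23 members were called (background 0.00627%), and 0 had an unadjusted p under 0.05 in edgeR (background 0.57%). DESeq2 and limma-voom with sample weights also called 0, and limma-voom gave 6 of 23 an unadjusted p under 0.05 (1278 of 15955 genes). The median log2 fold change was 0.089 over the 21 tested beta genes and -0.0036 over all genes, with 14 of 21 beta genes higher in het mice (0.18 with 20 of 21 in limma-voom). The median of the beta genes changed sign, to -0.076, when wild-type stressed replicate 2, the library of low Xist, was left out. The alpha entry differed by 0.041 ± 0.23 (SE) and the gamma entry by -0.012 ± 0.28 on the log2 scale.

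Among the beta genes the smallest p-values in this contrast belonged to Pcdhb7 (log2 fold change 0.30 ± 0.14), Pcdhb12 (0.36 ± 0.22) and Pcdhb21 (0.41 ± 0.36) on the higher side and to Pcdhb16 (-0.27 ± 0.35), Pcdhb5 (-0.13 ± 0.23) and Pcdhb3 (-0.098 ± 0.24) on the lower side. All adjusted p were 0.99992 in edgeR. Pcdhb7 and Pcdhb9 were the 2 members whose CPM did not overlap between these groups with het higher, and the background for that was 3.08%; 0 members were apart with het lower (background 2.11%). Pcdhb9 was 15.46, 16.14 and 16.39 CPM in stressed het mice, against 14.09, 14.11 and 14.50 CPM in stressed wild-type mice. In TPM it overlapped, at 7.62, 8.13 and 8.74 in stressed het mice against 5.96, 6.02 and 8.32 in stressed wild-type mice.

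In controls, het against wild type, edgeR called 0 of 23 members (background 0.00627%), with 0 under an unadjusted p of 0.05 (background 1.47%). The beta median was 0.015, against 0.0030 over all genes, with 11 of 21 beta genes higher. It was 0.29 in limma-voom with 16 of 21 higher, 0.18 without het control replicate 1 with 16 of 21 higher, and -0.12 without het control replicate 3 with 4 of 21 higher. Alpha differed by -0.11 ± 0.23 (SE) and gamma by 0.063 ± 0.28. The smallest p-values were those of Pcdhb11 (0.38 ± 0.28), Pcdhb6 (0.40 ± 0.34) and Pcdhb14 (0.23 ± 0.25) on the higher side and of Pcdhb5 (-0.38 ± 0.23), Pcdhb7 (-0.16 ± 0.14) and Pcdhb9 (-0.14 ± 0.16) on the lower side, all with an edgeR adjusted p of 0.99999. In CPM no member's groups failed to overlap in either direction (background 1.44% higher and 1.95% lower). In TPM Pcdhb9 was apart with het lower, at 5.84, 5.44 and 6.22 in het controls against 6.34, 6.85 and 7.72 in wild-type controls.

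This was the only contrast in which another tool called members. DESeq2 called 0, while limma-voom with sample weights, which gives less weight to libraries that stand apart, called 4 of 23 members (background 6.16%) and gave 11 of 23 an unadjusted p under 0.05 (background 27%). They were Pcdhb6 (0.85, adjusted p = 0.0177 in limma-voom), Pcdhb14 (0.44, adjusted p = 0.0483) and Pcdhb18 (0.80, adjusted p = 0.04999) on the higher side and Pcdhb9 (-0.36, adjusted p = 0.0287) on the lower side. Under the other alternatives the lowest adjusted p of these 4 was 0.810 for Pcdhb6, 0.822 for Pcdhb14, 0.906 for Pcdhb18 and 0.835 for Pcdhb9, and the highest was 1.0 for each. The log2 fold change of Pcdhb18 was -0.065 ± 0.52 (SE) in edgeR and ran from -0.33 to 0.80 over the alternatives.

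These values depended on single mice, and not only on het control replicate 1. As single mice were left out, the edgeR log2 fold change ran from 0.11 to 0.74 for Pcdhb6 and from -0.36 to -0.028 for Pcdhb9. For Pcdhb14 it ran from -0.035, without het control replicate 3, to 0.47. Pcdhb6 was 1.32 TPM in het control replicate 1 and 5.11 and 6.28 TPM in the other het controls, against 2.50, 2.76 and 4.60 TPM in wild-type controls. Without het control replicate 1 the edgeR log2 fold change was 0.74 for Pcdhb6, 0.47 for Pcdhb14, 0.32 for Pcdhb18 and -0.36 for Pcdhb9, with none called. In that fit 4 of 23 members had an unadjusted p under 0.05 in edgeR (background 4.05%). They included Pcdhb6 (unadjusted p = 0.0043 in edgeR), Pcdhb9 (unadjusted p = 0.0164) and Pcdhb14 (unadjusted p = 0.0267).

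In wild-type mice, stressed against control, edgeR called 0 of 23 members and 0 of all genes (background 0%), with 0 members under an unadjusted p of 0.05 (background 2.49%), and DESeq2 and limma-voom also called 0 members. The beta median was -0.023, against -0.0058 over all genes, with 10 of 21 beta genes higher. Alpha differed by 0.079 ± 0.23 (SE) and gamma by 0.18 ± 0.28. The smallest p-values belonged to Pcdhb11 (0.36 ± 0.28), Pcdhb13 (0.29 ± 0.24) and Pcdhb19 (0.29 ± 0.35) on the higher side and to Pcdhb2 (-0.67 ± 0.60), Pcdhb5 (-0.18 ± 0.23) and Pcdhb9 (-0.10 ± 0.16) on the lower side, all with an edgeR adjusted p of 0.99992. In CPM Pcdhb11 was the only member whose groups did not overlap (background 2.62%). It was 3.43, 3.74 and 4.93 CPM in stressed wild-type mice against 3.35, 3.24 and 2.88 CPM in wild-type controls. In CPM 0 members were apart on the lower side (background 3.17%). In TPM Pcdhb11 overlapped, at 1.22, 1.34 and 2.37 in stressed wild-type mice against 1.08, 1.21 and 1.35 in wild-type controls. The same groups lay apart in the summed level of 5 choroid plexus markers, at 5.80 to 23.4 TPM in stressed wild-type mice against 299.9 to 577.3 TPM in wild-type controls, 1 marker being at 0 in at least 1 library. The 4 thalamus markers, none at 0, were 22.9 to 30.5 TPM in stressed wild-type mice and 23.3 to 28.2 TPM in het controls, against 39.4 to 116.6 TPM in wild-type controls. Their part in these values was not tested.

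In het mice, stressed against control, edgeR called 0 of 23 members and 0 of all genes (background 0%), and DESeq2 and limma-voom called 0 members. The beta median was 0.095, against 0.0026 over all genes, with 15 of 21 beta genes higher, and it ran from -0.073 to 0.24 as single mice were left out (0.036 with 11 of 21 in limma-voom). Alpha differed by 0.23 ± 0.23 (SE) and gamma by 0.10 ± 0.28. On the lower side the smallest p-values were those of Pcdhb6 (-0.27 ± 0.33), Pcdhb8 (-0.26 ± 0.37) and Pcdhb14 (-0.16 ± 0.25). On the higher side they were those of Pcdhb7, Pcdhb9 (0.20 ± 0.16) and the alpha entry.

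Pcdhb7 had the smallest p of the family here. It was 8.65, 7.73 and 8.13 CPM in stressed het mice and 5.33, 6.36 and 6.71 CPM in het controls, against 5.98, 6.62 and 7.34 CPM in stressed wild-type mice and 6.81, 6.53 and 7.17 CPM in wild-type controls. The 3 stressed het mice were above all 9 other mice in CPM, which held for 1 of 23 members (background 0.157%). This comparison was not planned and was made for this group and direction only, a choice that the background does not account for. In CPM Pcdhb7 was the only member whose groups did not overlap in stressed against control het mice, with stressed higher (background 3.97%). In CPM 0 members were apart with stressed lower (background 2.71%). In TPM Pcdhb9 was apart as well, at 7.62, 8.13 and 8.74 in stressed het mice against 5.84, 5.44 and 6.22 in het controls. A background in TPM was not computed.

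The log2 fold change of Pcdhb7 in stressed against control het mice was 0.41 ± 0.14 (SE; unadjusted p = 0.0140, adjusted p = 0.99995, edgeR's quasi-likelihood test). In that fit it was the only member with an unadjusted p under 0.05 in this contrast, for which the background was 1.12%. DESeq2 also gave 1 member under that limit, and limma-voom gave 4 of 23 (1974 of 15955 genes). EdgeR gave 2 with the length slope as covariate (733 of 15955 genes). Without het control replicate 1 edgeR gave 3 (400 of 16055 genes), Pcdhb7 not among them. The log2 fold change of Pcdhb7 ran from 0.32 to 0.48 over 20 alternatives, and the adjusted p from 0.155 to 1.0. Without het control replicate 1 it was 0.32 (unadjusted p = 0.0509 in edgeR), and it was 0.37 when the length slope entered the model.

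Pcdhb7 also had the smallest p in the interaction, the difference of the stress effect between het and wild-type mice (0.45 ± 0.20, unadjusted p = 0.0465, edgeR adjusted p = 0.99997; background 1.33% under that limit). The other 22 members were not under that limit. With DESeq2, with RLE scaling and without the filter 0 members were under it, against 3 of 23 in limma-voom (2405 of 15955 genes). Pcdhb7 was under it in 5 of 19 alternatives. Without wild-type stressed replicate 2 its interaction was 0.45, and without het control replicate 1 it was 0.35 (unadjusted p = 0.0976 in edgeR). Its counts were not whole in any library, as given above. In TPM it was 3.70, 3.37 and 3.75 in stressed het mice and 1.51, 2.56 and 2.97 in het controls, against 2.19, 2.44 and 3.63 in stressed wild-type mice and 2.27, 2.52 and 3.48 in wild-type controls, so that in TPM the stressed het mice overlapped the wild-type mice.

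In TPM, summed markers of neurons, immature neurons and cortex also lay apart between the het groups. Those of medium spiny neurons, astrocytes, oligodendrocytes and their precursors, microglia, endothelium, choroid plexus, ependyma and thalamus overlapped. Het control replicate 1 had the lowest TPM of the 12 libraries for 53.5% of all tested genes, as given above. The summed level of 4 neuron markers was 1648 to 1773 TPM in stressed het mice, against 1103 to 1501 TPM in het controls, and that of 6 immature neuron markers was 327.5 to 340.1 TPM against 234.8 to 296.1 TPM. The 4 markers of cortex were 110.2 to 152.9 TPM in stressed het mice and 11.6 to 82.8 TPM in het controls. None of these 14 markers was at 0 in any library, and their part in the Pcdhb7 values was not tested.

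The interaction, the stress average and the genotype average held 0 called members in edgeR (background 0%, 0% and 0.00627%), in DESeq2 and in limma-voom. Unadjusted p under 0.05 in edgeR were found for Pcdhb7 in the interaction and for 0 members in the stress average (background 2.34%) and the genotype average (background 0.708%). The beta median was 0.074 in the interaction, 0.051 in the stress average and 0.040 in the genotype average, against -0.0095, -0.00049 and 0.00079 over all genes. In limma-voom it was -0.11 in the interaction, 0.035 in the stress average and 0.32 in the genotype average. In the genotype average limma-voom had 19 of 21 beta genes higher in het mice and 13 of 23 members with an unadjusted p under 0.05 (background 23.7%), none of them called. In the stress average limma-voom gave 5 of 23 members an unadjusted p under 0.05 (2098 of 15955 genes). Alpha and gamma differed by 0.15 ± 0.33 and -0.075 ± 0.39 in the interaction (SE), by 0.16 ± 0.16 and 0.14 ± 0.20 in the stress average, and by -0.036 ± 0.16 and 0.026 ± 0.20 in the genotype average. No member separated the 6 stressed from the 6 control mice or the 6 het from the 6 wild-type mice in CPM (backgrounds 0.0815% higher and 0.094% lower for stress, and 0.0439% higher and 0.0313% lower for genotype).

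Besides Pcdhb7, the interaction had its smallest p-values at Pcdhb9 (0.31 ± 0.23, SE) and Pcdhb5 (0.25 ± 0.33) on the higher side and at Pcdhb6 (-0.49 ± 0.48), Pcdhb11 (-0.30 ± 0.39) and Pcdhb10 (-0.15 ± 0.40) on the lower side. In the stress average they were at Pcdhb7 (0.19 ± 0.10), Pcdhb13 (0.24 ± 0.17) and Pcdhb19 (0.30 ± 0.24) on the higher side and at Pcdhb2 (-0.41 ± 0.42), Pcdhb8 (-0.18 ± 0.26) and Pcdhb14 (-0.10 ± 0.17) on the lower side. In the genotype average they were at Pcdhb12 (0.27 ± 0.15), Pcdhb11 (0.23 ± 0.20) and Pcdhb21 (0.29 ± 0.26) on the higher side and at Pcdhb5 (-0.26 ± 0.16), Pcdhb16 (-0.27 ± 0.25) and Pcdhb3 (-0.065 ± 0.17) on the lower side.

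The approximate 95% intervals were wide. In stressed against control het mice the interval was -0.22 to 0.69 for alpha and -0.44 to 0.64 for gamma on the log2 scale, and in het against wild-type controls it was -0.57 to 0.34 for alpha and -0.48 to 0.61 for gamma. Fitted differences of the 23 members lay between -0.27 and 0.41 in stressed het against stressed wild-type mice, -0.38 and 0.40 in het against wild-type controls, -0.67 and 0.36 in stressed against control wild-type mice, and -0.27 and 0.41 in stressed against control het mice.

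**Figure D5:**
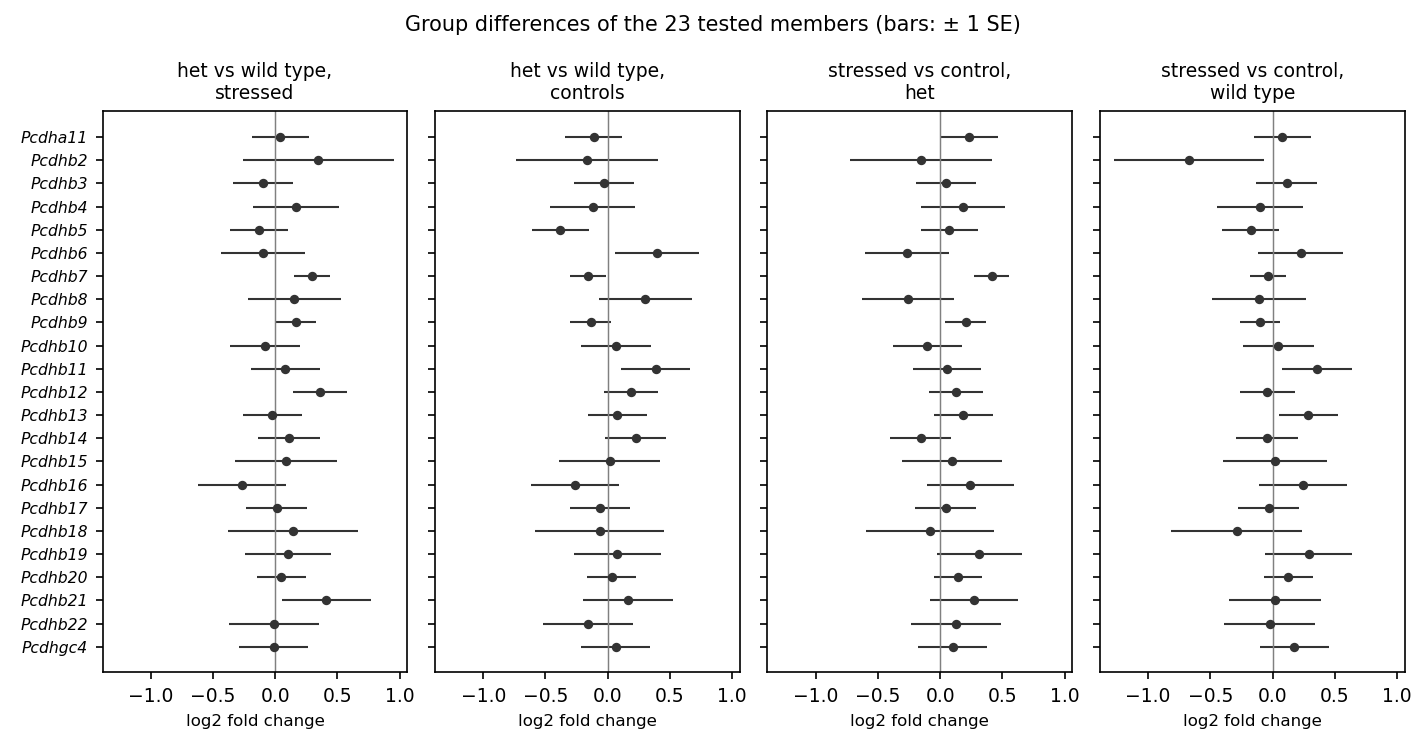
Log2 fold change (x axis) with ± 1 SE from edgeR for each of the 23 tested members (y axis, from alpha at the top through beta to gamma) in the 4 pairwise contrasts, the group named first being on top of the fold change. Points lie on both sides of 0 in each panel, and Pcdhb7 at 0.41 ± 0.14 in stressed against control het mice has the smallest SE relative to its distance from 0.

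No member transcript was called either. Of the 46 member transcripts 43 passed the filter, among 37796 in all, and 0 were called by edgeR's quasi-likelihood test in each of the 7 contrasts (background 0.00265% in het against wild-type controls, in stressed against control het mice and in the stress average, and 0% in the others), with 0 under an unadjusted p of 0.05. The Pcdhb7 transcript ENSMUST00000053037.3 was thus not under that limit (unadjusted p = 0.0553 in stressed against control het mice and 0.112 in the interaction, edgeR). The share of all transcripts under that limit was 1.66% in stressed het against stressed wild-type mice, 2.06% in het against wild-type controls, 3.64% in stressed against control wild-type mice, 1.84% in stressed against control het mice, 2.13% in the interaction, 3.79% in the stress average and 1.94% in the genotype average.

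Genes that work beside the clusters were described from 4 lists, and no listed gene was called or had an unadjusted p under 0.05 in any contrast by edgeR. Of 13 non-clustered protocadherins, single adhesion genes outside the 3 clusters, 12 were tested. All 12 had positive fold changes in stressed against control het mice (50.5% of all genes; median log2 fold change 0.20, against 0.0026 over all genes). In wild-type mice 10 of 12 did so (48.8% of all genes; median 0.17, with the smallest p at Pcdh10, 0.22 ± 0.21, and Pcdh8, 0.34 ± 0.32, SE). Values without het control replicate 1, the library of lowest length slope, are not given for the 4 lists. Without it the beta median of the het contrast was -0.073. The summed level of the 13 genes was 124.5 to 149.0 TPM in stressed het mice and 57.3 to 141.5 TPM in het controls, against 96.1 to 202.5 TPM in stressed wild-type mice and 63.9 to 160.6 TPM in wild-type controls, overlapping throughout. The 2 of smallest p in the het contrast were Pcdh8, at 0.36 ± 0.32 (SE), and Pcdh7, at 0.35 ± 0.33.

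The regulators of cluster promoter choice and silencing, among them Ctcf, the cohesin subunit Rad21 and the histone methyltransferase Setdb1, had 20 of 21 genes tested. Of these, 17 had positive fold changes in stressed against control het mice (median 0.069, with 50.5% of all genes positive). In stressed against control wild-type mice 13 did so (median 0.055, with 48.8% of all genes positive). In het against wild-type controls 5 did so (median -0.054, with 50.7% of all genes positive). Rad21 had the smallest p of the list in het against wild-type controls, at -0.17 ± 0.12 (SE), and in stressed against control wild-type mice, at -0.18 ± 0.12. Next in both was the histone demethylase gene Kdm1a, at -0.085 ± 0.12 and -0.18 ± 0.12 in the same order of contrasts. In stressed against control het mice the smallest belonged to the cohesin-associated factor Pds5b (0.14 ± 0.15) and to Setdb1 (0.14 ± 0.15).

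The signalling and processing partners, such as focal adhesion kinases, the WAVE actin-regulatory complex and the proteases that release protocadherin fragments, had 25 of 25 genes tested. Their median was 0.11 in stressed against control het mice, with 20 of 25 positive (50.5% of all genes). In stressed against control wild-type mice the median was 0.074, with 19 of 25 positive (48.8% of all genes). It was 0.0098 in stressed het against stressed wild-type mice, with 14 of 25 positive (48.8% of all genes). Ncstn, a subunit of gamma-secretase, had the smallest p in the het stress contrast (0.20 ± 0.12, SE), followed by the WAVE complex gene Cyfip1 (0.22 ± 0.17). In stressed het against stressed wild-type mice Cyfip1 (0.17 ± 0.17) came before Ncstn (0.084 ± 0.12).

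Of 7 neighbours in the locus that are no protocadherins, 6 were tested, among them Taf7, which encodes a subunit of the general transcription factor TFIID, and Hars, a histidyl-tRNA synthetase. Their median was 0.034 in stressed against control het mice, where Hars (0.13 ± 0.10, SE) and the formin gene Diaph1 (0.15 ± 0.22) had the smallest p, and -0.048 in het against wild-type controls, where Hars was at -0.14 ± 0.10 (SE) and Taf7 at -0.15 ± 0.15. The summed level of the 7 genes lay apart between the het groups, at 257.4 to 297.7 TPM in stressed het mice and 203.6 to 245.9 TPM in het controls. It overlapped between stressed wild-type mice (234.8 to 286.2 TPM) and wild-type controls (237.9 to 271.9 TPM). In at least 1 library 1 of the 7 was at 0.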

How the data were processed

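RNA-seq of 12 striatal libraries was analysed, 3 per group. The submitters' processing notes name RSEM, Bowtie and the mouse build mm9 (NCBIM37), without a version of either tool. The deposited files hold, per gene and transcript and per the file headers, the expected count, TPM and the percent of a gene's TPM taken by a transcript (IsoPct), 1 file per library. Symbols came from a table matched by Ensembl identifier (87.4% of genes). The 5hmC tables were not used here.

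Expected counts were rounded, filtered with filterByExpr (minimum count 10), TMM-scaled and tested with edgeR 4.0.16 (glmQLFit, glmQLFTest) in R 4.3.3 over all 12 libraries and 4 group means. P-values were two-sided, adjusted by Benjamini-Hochberg over all genes and called at 0.05. SE is the absolute log2 fold change divided by the square root of F. Approximate 95% intervals use it with the multiplier of a normal distribution, which is too small for groups of this size. They are thus narrower than the tests imply. For Pcdhb7 in stressed het against stressed wild-type mice the interval was 0.017 to 0.57, with an unadjusted p of 0.062 in edgeR. Alternatives were DESeq2 1.42.0, limma 3.58.1 (voom with sample weights), RLE scaling, no filter, the compared groups alone, a length slope covariate, a replicate block and leaving out mice. Only the edgeR fit, with and without a covariate, was tested on simulated counts. These had a spread common to all genes and no libraries that stand apart, so the test does not cover the other tools or such libraries.

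Named beta genes are the 3 of highest mean TPM and, per contrast, the 3 of smallest p in each direction; alpha and gamma are a single entry each, so the rule's C-type and top-3 choices could not be applied there. In partner lists the 2 of smallest p were eligible. Members and lists were chosen with earlier results of these data known. Replicate libraries differed beyond sampling noise (chi-square per gene 9.22 to 223).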

Additional observations from a re-analysis of the deposited data

How the results depend on the processing

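The number of called members stayed at 0 in all 7 contrasts under each alternative that was run, transcripts in place of genes included, except that limma-voom with sample weights called 4 in het against wild-type controls, as described above. Whether the replicate numbers pair the mice was not settled. Same-numbered deviations correlated at -0.256 to 0.674, with 0.674 and 0.668 for replicates 1 and 3 in het against wild-type controls. Differently numbered mice were not compared, so these values cannot decide it. Fits with a replicate block called 0 members in each contrast. The beta medians spanned 0 as single mice were left out (-0.21 to 0.30 in the interaction, the widest range). All sign changes below are of log2 fold changes that were not called in edgeR, and the cause was not tested.

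With limma-voom the sign changed in stressed het against stressed wild-type mice, to 0.17 for gamma, 0.075 for Pcdhb16 and 0.086 for Pcdhb3. It changed to 0.017 for alpha in het against wild-type controls, to -0.055 for gamma in stressed against control het mice and to -0.00851 for Pcdhb5 in the interaction. In stressed against control wild-type mice limma-voom gave -0.059 for alpha, -0.066 for Pcdhb19 and 0.045 for Pcdhb5, and in the genotype average 0.12 for alpha, 0.13 for Pcdhb16 and 0.00563 for Pcdhb3. Gamma in stressed het against stressed wild-type mice turned to 0.000494 without the filter, to 0.011 with the slope covariate and to 0.031 with the replicate block. The slope covariate also gave -0.00142 for alpha in stressed against control wild-type mice, -0.026 for gamma in stressed against control het mice and 0.011 for alpha in the genotype average. Without both libraries of lowest slope, an alternative chosen after seeing the data, alpha was -0.086 in stressed against control wild-type mice, gamma was -0.15 in stressed against control het mice, and the stress average was -0.0052 for alpha and -0.052 for gamma.

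Leaving out single mice changed the sign of these members, given by their lowest and highest values. In stressed het against stressed wild-type mice they were -0.062 to 0.24 for alpha, -0.11 to 0.20 for gamma, -0.52 to 0.030 for Pcdhb16 and -0.23 to 0.10 for Pcdhb3. In het against wild-type controls they were -0.29 to 0.10 for alpha, -0.17 to 0.31 for gamma and -0.035 to 0.47 for Pcdhb14. In stressed against control wild-type mice they were -0.13 to 0.30 for alpha, -0.047 to 0.39 for gamma and -0.11 to 0.64 for Pcdhb19. In stressed against control het mice they were -0.15 to 0.33 for gamma, -0.62 to 0.019 for Pcdhb6, -0.49 to 0.14 for Pcdhb8 and -0.41 to 0.11 for Pcdhb14. In the interaction they were -0.075 to 0.35 for alpha, -0.33 to 0.16 for gamma and -0.39 to 0.027 for Pcdhb10. The stress average gave -0.39 to 0.015 for Pcdhb8 and -0.22 to 0.032 for Pcdhb14, and the genotype average gave -0.12 to 0.067 for alpha, -0.090 to 0.14 for gamma and -0.16 to 0.035 for Pcdhb3.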
